A study of Mus musculus with 12 samples.

Results

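The 9 genes described here encode complement components and regulators: C3, C4B, CFB, C2, CFI, CFP, C3AR1, SERPING1 and CD55. They were matched by gene symbol, and all 9 were found among the 41042 genes listed for each prostate RNA-seq library. The libraries came from the prostates of 12 C57BL/6 mice of 4 genotypes, each mouse 15 months old, with 3 mice per genotype. WT mice carried neither alteration. Pb-ERG mice carried an ERG transgene under the probasin (Pb) promoter, which is active in prostate epithelium. In Trp53pc-/- mice a Cre recombinase under the same promoter deleted the floxed Trp53 alleles in prostate cells, and Pb-ERG;Trp53pc-/- mice, called double mutant below, carried both. Mice with a Trp53 point mutant were not analysed here. Transgene and Cre act in the epithelium, whereas RNA was taken from whole prostate tissue, so the values average over epithelium, stroma and infiltrating cells, and fewer cells of a type and less RNA per cell cannot be told apart.

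Complement is a cascade of plasma proteins that tags and lyses targets and attracts leukocytes. The classical and lectin pathways cleave C4 and C2 to form one C3 convertase, and the alternative pathway forms another from C3 and factor B, which properdin stabilises. C3 cleavage releases C3a, the ligand of C3aR1, a receptor carried mainly by myeloid cells. SERPING1 (C1 inhibitor) blocks the C1 proteases, factor I cleaves deposited C3b and C4b, and CD55 (decay-accelerating factor) dissociates the convertases on the cell surface. Liver makes most of the circulating proteins, and macrophages, fibroblasts and epithelia make several of them locally.

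Values are FPKM as deposited. They count fragments relative to the length of a gene and the size of a library, so levels can be compared between genes. The libraries held 19747635 to 32565774 fragments, and the member with the thinnest coverage, Cfi, had 16 fragments in its lowest library, against 53 or more for each other member. Erg FPKM was 0.462 to 0.925 in WT and 0.268 to 0.716 in Trp53pc-/- libraries, and 8.26 to 27.1 in the 6 libraries labelled with the transgene. Trp53 FPKM gave no such check of the deletion, so every direction drawn from the Trp53 labels rests on the labels alone. It was 8.87 to 11.3 in WT, 13.4 to 22.3 in Pb-ERG, 5.32 to 10.6 in Trp53pc-/- and 11.2 to 21.5 in double mutant libraries. The double mutant replicate 3 stood apart from the rest. Its median correlation with the other libraries was 0.827, against 0.913 to 0.957 for each of the other 11, its probasin (Pbsn) FPKM was 53.3 against 5505 or more elsewhere, and its smooth muscle and seminal vesicle genes were the lowest of all 12. Results that rest on it are given with and without it.

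In WT prostate the members spanned 2 orders of magnitude. Serping1 had the highest level, with 63.9 ± 20.9 FPKM (SD, n = 3), followed by C3 with 29.0 ± 13.2 and Cd55 with 14.2 ± 2.27. Serping1 did not overlap with C3, but C3 and Cd55 overlapped. Cfb (5.84 ± 1.62), C2 (4.14 ± 1.10), C4b (3.82 ± 1.08) and Cfp (3.30 ± 1.57) formed an overlapping middle group. C3ar1 (0.839 ± 0.261) and Cfi (0.475 ± 0.162) were lowest. In the double mutant group Serping1 stayed first (279 ± 86.9) and C3 second (96.9 ± 79.1), whereas C2 (44.7 ± 40.5) had the third highest mean and Cfi (8.91 ± 6.13) lay above Cfp (8.37 ± 2.33). The libraries of C3, C2, Cfb and Cd55 overlapped in that group, as did those of Cfi and Cfp, so these changes of place were within the spread.

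Among the early components, C4b FPKM was 2.65, 4.77 and 4.04 in WT replicates 1 to 3, 5.31, 20.4 and 32.3 in Pb-ERG, 3.39, 5.81 and 2.74 in Trp53pc-/-, and 18.9, 7.20 and 31.2 in double mutant libraries. Every library with the transgene was above every WT library, and the lowest Pb-ERG library lay within the Trp53pc-/- range. C2, which supplies the protease of the classical convertase, had 3.01, 5.20 and 4.20 FPKM in WT, 6.17, 35.5 and 19.5 in Pb-ERG, 3.50, 4.08 and 4.25 in Trp53pc-/-, and 33.9, 10.8 and 89.5 in double mutant libraries. All 6 libraries with the transgene were above all 6 without it. Pb-ERG replicate 1 was nearest to those without it, and double mutant replicate 3 lay far above the rest. The share of all genes tested with these separations of C4b and C2 was not counted.

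C3, the component on which all pathways converge, had 13.9, 38.5 and 34.6 FPKM in WT, 30.3, 150.4 and 123 in Pb-ERG, 13.4, 15.5 and 4.91 in Trp53pc-/-, and 188, 58.5 and 44.4 in double mutant libraries. Pb-ERG replicate 1 fell inside the WT range, and the remaining 5 transgene libraries lay above every library without the transgene. Cfb, the protease of the alternative convertase, had 3.98, 6.85 and 6.70 FPKM in WT, 8.03, 25.1 and 29.0 in Pb-ERG, 3.48, 5.30 and 2.697 in Trp53pc-/-, and 44.1, 18.8 and 36.9 in double mutant libraries, with no overlap between libraries with and without the transgene. Cfp (properdin) had 2.01, 5.05 and 2.85 FPKM in WT, 2.74, 7.32 and 11.8 in Pb-ERG, 2.92, 3.03 and 1.43 in Trp53pc-/-, and 11.02, 7.42 and 6.67 in double mutant libraries. Pb-ERG replicate 1 was again inside the WT range. For the separations of C3 and Cfb, too, the share of all genes tested was not counted.

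Of the regulators, Serping1 FPKM was 40.2, 79.7 and 71.9 in WT, 96.2, 295 and 195 in Pb-ERG, 41.0, 81.9 and 53.5 in Trp53pc-/-, and 303, 182 and 351 in double mutant libraries, without overlap between libraries with and without the transgene. Cfi FPKM was 0.295, 0.609 and 0.521 in WT, 0.385, 3.02 and 4.25 in Pb-ERG, 0.862, 0.440 and 0.788 in Trp53pc-/-, and 5.70, 5.04 and 16.0 in double mutant libraries. The 3 double mutant libraries were the 3 highest, and Pb-ERG replicate 1 lay inside the WT range. Cd55 had another pattern, with 16.4, 14.4 and 11.9 FPKM in WT, 14.3, 14.5 and 9.53 in Pb-ERG, 20.7, 13.4 and 7.95 in Trp53pc-/-, and 50.3, 25.8 and 23.5 in double mutant libraries. Pb-ERG overlapped with WT for this gene, and the double mutant libraries were above all 9 others. The receptor gene C3ar1 had 0.711, 1.14 and 0.666 FPKM in WT, 1.03, 1.94 and 3.58 in Pb-ERG, 1.01, 0.729 and 0.667 in Trp53pc-/-, and 6.80, 3.21 and 4.34 in double mutant libraries. Double mutant libraries were above all WT libraries, as for 44.7% of the genes tested, and Pb-ERG replicate 1 was inside the WT range. The share of all genes with the separations given here for Serping1, Cfi and Cd55 was not counted.

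**Figure D1:**
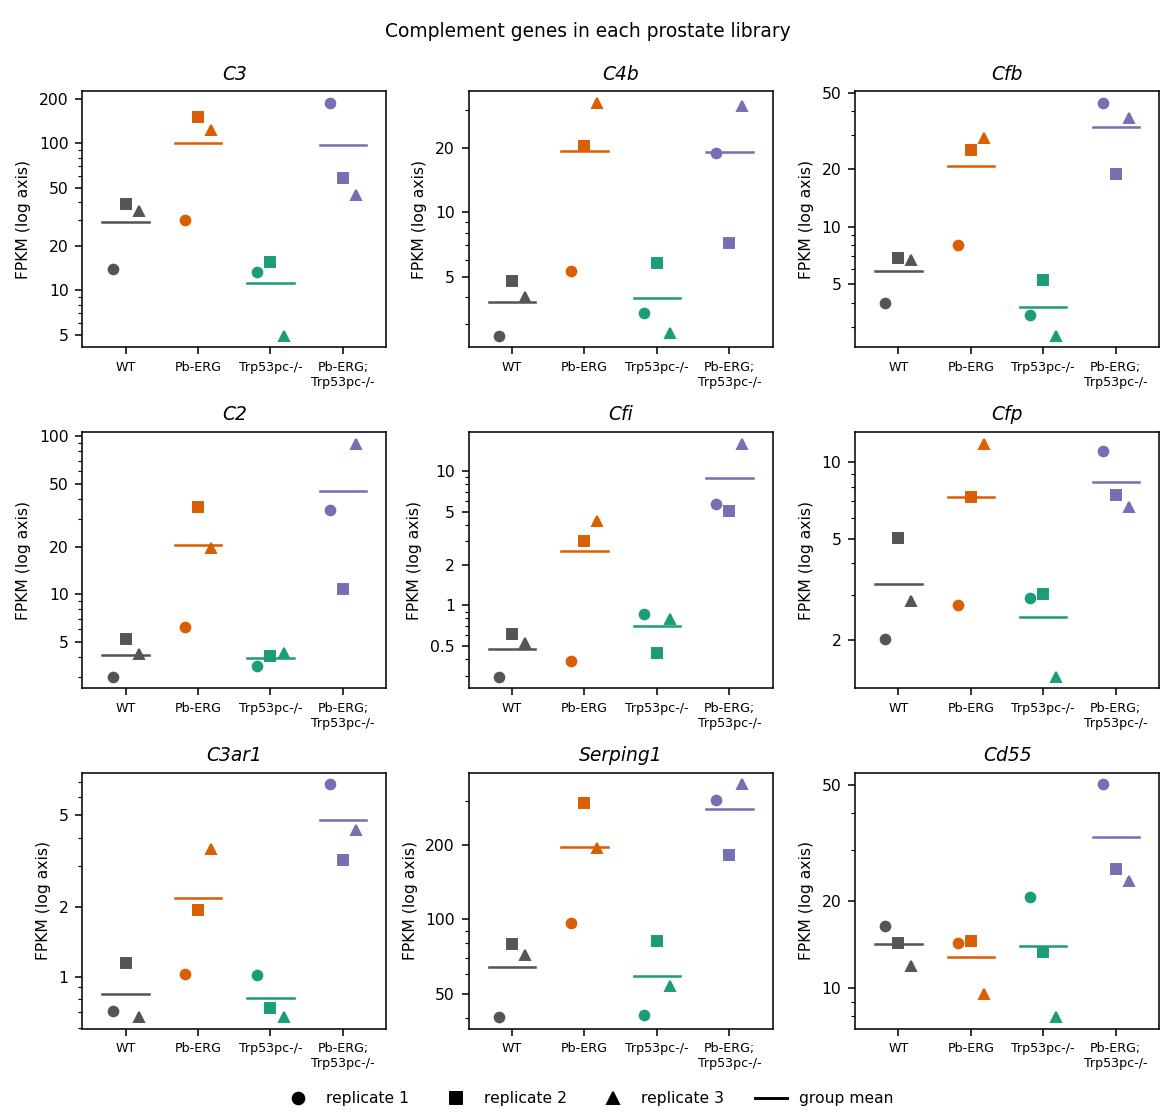
FPKM (log axis) of the 9 complement genes in each library, by genotype; symbols mark the replicate number and lines the mean of 3 mice. The double mutant libraries lie above the 3 WT libraries in all 9 panels, as they do for 44.7% of the genes tested. Pb-ERG replicate 1 (circle) is the lowest of its group in 8 panels, all but Cd55.

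C3, C4b, Cfb and C2 lie on mouse chromosome 17, the last 3 of them within the major histocompatibility complex. In GRCm38 coordinates, C3 covers chr17:57203970-57228136, C4b chr17:34728380-34743882, Cfb chr17:34856374-34862518 and C2 chr17:34862604-34895547, all on the minus strand. Cfb and C2 are neighbours, and the annotated gene Gm20547 runs across both on the same strand, sharing 2246 exonic bases with Cfb (79.5% of its exon bases) and 1656 with C2 (42.8%). Fragments in the shared exons were counted for each gene, since the Gm20547 count was 82.8% to 92.4% of the sum of C2 and Cfb in every library. Gm20547 is therefore not an independent measurement, and the C2 and Cfb values may include its transcripts. C4b shares 35.2% of its 50-base windows and 16.5% of its 100-base windows with its paralog C4a, and reads from such stretches cannot be assigned to one of them with certainty. Cd55 shares 13.3% of 50-base windows with Cd55b, which was below the filter. C2 overlaps Zbtb12 by 161 bases and Cd55 overlaps the antisense gene Gm16083 by 102 bases, and the kit did not keep strand.

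Promoter sequences of RefSeq (GRCm38.p6) were at hand for 4 of the 9 members: C3, Cfp and C3ar1, which passed the test in the average over the transgene described below, and Cd55, which did not pass it. C4b, Cfb, C2, Cfi and Serping1 were not in the table. The 250 bases before each start are shown 5′ to 3′ on the gene's strand. Capitals mark matches, on either strand, to 5 short motifs of factors known to act on immune genes. These were an ETS pattern, AGGAAG (ERG is an ETS factor), the interferon-gamma site TTCNNNGAA, the interferon-stimulated element GAAANNGAA, the NF-kB site GGGNNTTTC and the C/EBP site TTGNNCAA. Matches to TTCNNNGAA and GAAANNGAA can overlap.
C3 promoter, chr17:57228137-57228386 (- strand): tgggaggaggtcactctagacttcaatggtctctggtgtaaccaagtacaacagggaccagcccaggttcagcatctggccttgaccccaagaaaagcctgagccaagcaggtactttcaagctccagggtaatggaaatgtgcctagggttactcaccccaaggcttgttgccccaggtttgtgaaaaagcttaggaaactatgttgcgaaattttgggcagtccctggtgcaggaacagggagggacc
Cfp promoter, chrX:20931556-20931805 (- strand): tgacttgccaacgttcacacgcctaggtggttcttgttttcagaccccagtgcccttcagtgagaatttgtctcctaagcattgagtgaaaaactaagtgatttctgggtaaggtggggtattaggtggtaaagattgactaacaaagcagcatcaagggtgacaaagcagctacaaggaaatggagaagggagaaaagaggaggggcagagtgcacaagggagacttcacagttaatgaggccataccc
C3ar1 promoter, chr6:122856158-122856407 (- strand): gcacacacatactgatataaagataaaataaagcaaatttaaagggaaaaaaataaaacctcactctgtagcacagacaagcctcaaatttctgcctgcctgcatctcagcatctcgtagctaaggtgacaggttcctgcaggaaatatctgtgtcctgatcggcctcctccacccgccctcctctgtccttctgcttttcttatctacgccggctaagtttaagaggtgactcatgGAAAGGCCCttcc
Cd55 promoter, chr1:130462745-130462994 (- strand): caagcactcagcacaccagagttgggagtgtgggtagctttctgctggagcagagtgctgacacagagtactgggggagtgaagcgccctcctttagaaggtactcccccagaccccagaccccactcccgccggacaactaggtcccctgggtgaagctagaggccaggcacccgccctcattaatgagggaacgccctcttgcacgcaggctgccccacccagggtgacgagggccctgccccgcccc
One match was found, an NF-kB pattern in reverse orientation (GAAAGGCCC) that begins 13 bases before the C3ar1 start. Of 32851 mouse promoters of this length, 29.5% held the ETS pattern, 7.02% the interferon-gamma site, 7.13% the interferon-stimulated element, 3.72% the NF-kB site and 5.65% the C/EBP site. The absence of a match says only that these letters are not in these windows. The shorter letters GGAA within the ETS pattern occur in each window printed and were not marked.

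To ask how the transgene changed the level of the members with and without Trp53, limma was run on log2(FPKM + 1) values, with Benjamini-Hochberg adjustment over the 17623 genes tested and a threshold of 0.05. Because 1 is added, the fold changes of weakly expressed members such as Cfi and C3ar1 come out too small. All 9 members passed the filter on low values. Averaged over both Trp53 backgrounds (6 libraries with and 6 without the transgene), 8 of 9 members rose, against 29.3% of all genes tested called higher and 2.11% lower. The median log2 fold change of the members was 1.83, beside 0.26 over all genes tested. C2 rose by 2.28 ± 0.49 on the log2 scale (SE in this and the following comparisons), adjusted p = 0.00777. C3 rose by 2.22 ± 0.50, adjusted p = 0.00974, and Cfb by 2.15 ± 0.32, adjusted p = 0.00194. Serping1 rose by 1.87 ± 0.31, C4b by 1.83 ± 0.43, Cfi by 1.73 ± 0.34, C3ar1 by 1.18 ± 0.21 and Cfp by 1.14 ± 0.30, with adjusted p between 0.00280 and 0.0189. Cd55 had a value of 0.52 ± 0.25 and did not pass (adjusted p = 0.125). With median-of-ratios scaling, which brought the median of all genes to 0.00, 7 of 9 members were higher against 12.5% of all genes, and Cfp no longer passed (adjusted p = 0.0536). Under that scaling 2206 genes were higher and 1781 lower, against 5169 and 371 as deposited. Leaving out any 1 of the 12 libraries kept the calls of the same 8 members.

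**Figure D2:**
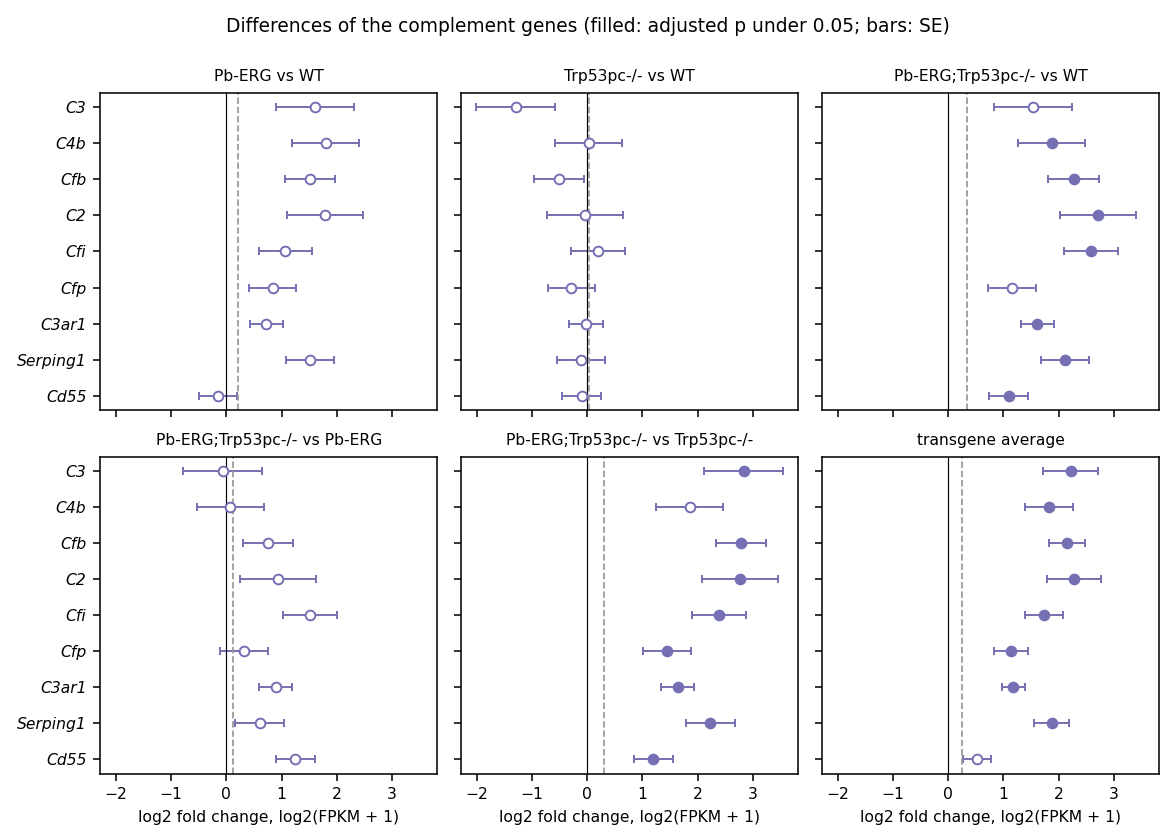
Log2 fold change of each complement gene on the log2(FPKM + 1) scale in 6 comparisons, with SE bars; filled points had an adjusted p under 0.05 and the dashed line is the median of all genes tested. In the average over the transgene 8 of 9 points are filled, against 0 of 9 for Pb-ERG against WT, where 8 of 9 point estimates are above 0.

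Double mutant prostates had higher levels than WT for 7 of the 9 members, against 22.0% of all genes tested. Cfi rose most by the ratio of group means, 18.7-fold, with a log2 fold change of 2.59 ± 0.49 (adjusted p = 0.00785). C2 rose 10.8-fold (2.72 ± 0.69, adjusted p = 0.0215), C3ar1 5.70-fold (1.61 ± 0.30, adjusted p = 0.00750), Cfb 5.69-fold (2.27 ± 0.46, adjusted p = 0.00998) and C4b 5.01-fold (1.88 ± 0.61, adjusted p = 0.0472). Serping1 rose 4.36-fold (2.11 ± 0.44, adjusted p = 0.0111) and Cd55 2.33-fold (1.10 ± 0.35, adjusted p = 0.0446). C3 (1.54 ± 0.71, adjusted p = 0.132) and Cfp (1.16 ± 0.43, adjusted p = 0.0717) did not pass. Every double mutant library was above every WT library for all 9 members, which was also so for 44.7% of the genes tested.

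The median log2 fold change of the members was 1.88 in this comparison, beside 0.35 over all genes. With median-of-ratios scaling, which brought that general shift to 0.01, 5 of 9 members passed against 8.08% of genes, and C4b (adjusted p = 0.0937) and Cd55 (adjusted p = 0.248) did not. Without double mutant replicate 3, 5 of 9 passed against 14.9%, and C4b (adjusted p = 0.142) and C2 (adjusted p = 0.0532) did not, while C3ar1, Cfb, Cfi, Serping1 and Cd55 kept their calls. Without that library the ratio of group means was 11.3 for Cfi, 5.39 for C2 and 3.42 for C4b. C2 lost its call also without any 1 of WT replicates 1 to 3 or double mutant replicate 1 (adjusted p 0.0529 to 0.0672). C4b lost it without any 1 of the 3 WT or 3 Trp53pc-/- libraries, Pb-ERG replicate 2 or double mutant replicate 1 (0.0559 to 0.125). Cd55 lost it without any 1 of the 3 WT libraries, Pb-ERG replicate 2 or 3, Trp53pc-/- replicate 2 or double mutant replicate 1 (0.0511 to 0.136). Cfp passed without Pb-ERG replicate 1 (adjusted p = 0.0261). The calls of Cfb, Cfi, C3ar1 and Serping1 did not depend on any 1 library.

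Between the 2 groups with the Trp53 deletion, the transgene went with higher levels of 8 of 9 members, against 18.7% of all genes tested. C3 had a log2 fold change of 2.83 ± 0.71 (adjusted p = 0.0219), Cfb 2.78 ± 0.46 (adjusted p = 0.00561), C2 2.76 ± 0.69 (adjusted p = 0.0214), Cfi 2.39 ± 0.49 (adjusted p = 0.0107) and Serping1 2.23 ± 0.44 (adjusted p = 0.00941). C3ar1, Cfp and Cd55 rose by 1.64, 1.44 and 1.20 (adjusted p 0.00757 to 0.0398), and C4b, with 1.85 ± 0.61, did not pass (adjusted p = 0.0548). All 3 double mutant libraries were above all 3 Trp53pc-/- libraries for the 9 members, and for 37.0% of the genes tested. With median-of-ratios scaling 6 of 9 members passed against 8.27% of genes, without Cfp (adjusted p = 0.0822) and Cd55 (adjusted p = 0.154). The calls of C3, C2, Cfp and Cd55 each fell when some single libraries were left out: C3 without Trp53pc-/- replicate 3 or double mutant replicate 1 (adjusted p 0.0704 and 0.0675), C2 without any 1 of the 3 Trp53pc-/- libraries or double mutant replicates 1 or 3 (0.0506 to 0.0602), Cfp without any 1 of the libraries of both groups, WT replicate 3 or Pb-ERG replicate 2 (0.0522 to 0.115) and Cd55 without any 1 of the 3 WT libraries, Trp53pc-/- replicates 2 or 3 or double mutant replicate 1 (0.0521 to 0.108). C4b passed without Pb-ERG replicate 1 or 3 or double mutant replicate 2 (0.0185, 0.0475 and 0.0198).

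With Trp53 intact, 0 of 9 members passed in Pb-ERG against WT in limma, where 2.18% of all genes were called (353 higher and 31 lower). At an unadjusted p under 0.05 in limma there were 6 members, beside 4112 of the 17623 genes tested. With voom on the recovered fragments 0 members were called. The point estimates of 8 members were above 0, with 1.80 ± 0.61 for C4b, 1.79 ± 0.69 for C2, 1.60 ± 0.71 for C3, 1.52 ± 0.46 for Cfb and 1.51 ± 0.44 for Serping1 (adjusted p 0.0941 to 0.207), and Cd55 had -0.15 ± 0.35. For 4 members (C4b, Cfb, C2 and Serping1) every Pb-ERG library was above every WT library, against 27.6% of genes tested. The result rested on Pb-ERG replicate 1. Without it, 8 of 9 members passed, all but Cd55, with log2 fold changes of 1.01 for C3ar1 to 2.496 for C4b (adjusted p 0.00618 to 0.0386), against 17.7% of genes. That library carried the transgene at 15.8 Erg FPKM, within the range of its group, and its acute phase genes summed to 695 FPKM, the lowest of the 6 transgene libraries (883 to 1841 in the other 5) and above the 53.5 at most in WT, whereas its interferon response genes (30.8) were inside the WT range. Its seminal vesicle genes summed to 49651 FPKM, the most of any library, against 159.8 and 84.7 in the other Pb-ERG libraries. Double mutant replicate 2 had a similar sum of 48180 FPKM, and was above every WT library for all 9 members. The part of these differences in the complement levels of Pb-ERG replicate 1 was not tested.

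The Trp53 deletion alone and on top of the transgene gave no call. In Trp53pc-/- against WT limma called 0 of 9 members and 0% of all genes, with 0 members at an unadjusted p under 0.05 (908 genes) and 0 by voom. C3 had the lowest value, -1.30 ± 0.71, and the other members lay between -0.51 and 0.20. In double mutant against Pb-ERG libraries limma called 0 of 9 members, where 0.0170% of genes (3 genes) were higher, and voom called 0 members. At an unadjusted p under 0.05 in limma there were 2276 of the 17623 genes tested, among them 3 members. These were Cfi (1.52 ± 0.49), Cd55 (1.25 ± 0.35) and C3ar1 (0.89 ± 0.30), with adjusted p of 0.285 to 0.301. C3 (-0.07 ± 0.71) and C4b (0.08 ± 0.61) had values near 0, with an error that would leave a change of more than 1 in either direction undetected. For the non-additive effect (how far the double mutant departs from both single changes added together), limma called 0 of 9 members and 0% of genes (1133 genes at an unadjusted p under 0.05), with 0 by voom. Its 1 member at an unadjusted p under 0.05 was Cd55 (1.35 ± 0.49, adjusted p = 0.746). The comparisons share libraries and are not independent of each other.

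The other complement genes were looked at by class. Of 50 listed, 38 passed the filter, and in the average over the transgene 19 were higher and 1 lower, with a median log2 fold change of 0.73, against 29.3% of all genes tested called higher and 2.11% lower. With median-of-ratios scaling 13 were higher and 1 lower, against 12.5% of all genes higher. The counts by class below are small and are read against the same 29.3%. Of those below the filter, Mbl1, Colec10 and Cpn2 had 0 fragments in all 12 libraries.

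At the start of the classical and lectin pathways, 7 of 13 tested genes were higher and 1 lower. The 3 chains of C1q, the antibody-binding subunit, rose by 1.59 (C1qa), 1.79 (C1qb) and 1.63 (C1qc), and C1qa was 5.22-fold and C1qb 5.26-fold the WT mean in double mutant mice. The C1 proteases C1ra (1.02 ± 0.24) and C1s1 (1.04 ± 0.27) rose, the latter not with median-of-ratios scaling (adjusted p = 0.0601). Masp1, a lectin pathway protease, rose by 1.61 ± 0.18 (adjusted p = 4.2e-04), from 1.11 to 1.68 FPKM in WT to 5.50 to 11.1 in double mutant libraries. Masp2, of the same pathway, did not pass, with 1.26 to 1.52 FPKM in WT and 1.05 to 4.47 in double mutant libraries. Colec12, a membrane collectin, rose by 1.56 ± 0.28.

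Relatives of the C1 proteases had values below 0 in this comparison. C1rb had the highest mean level of its class, with 1171, 732 and 910 FPKM in WT, 695, 209 and 37.6 in Pb-ERG, 1274, 719 and 183 in Trp53pc-/-, and 288, 423 and 1.14 in double mutant libraries. C1s2 had 876, 589 and 716 FPKM in WT and 319, 380 and 1.70 in double mutant libraries. Neither passed in the average over the transgene (C1rb -2.74 ± 1.25, adjusted p = 0.113, and C1s2 -2.705 ± 1.21, adjusted p = 0.109), and the libraries of a group differed by up to more than 100-fold. C1rl, a C1r-like protease, was the 1 lower gene. It fell by 1.61 on the log2 scale (SE 0.41, adjusted p = 0.0155), with 35.5, 22.0 and 31.96 FPKM in WT, 16.3, 8.53 and 4.51 in Pb-ERG, 36.6, 21.7 and 5.22 in Trp53pc-/-, and 4.80, 5.03 and 4.67 in double mutant libraries. C1ra shares 48.0% of its 50-base windows with C1rb, and C1s1 shares 24.3% with C1s2, so reads in these stretches are of uncertain origin. C1s1 also overlaps the antisense gene Gm16567 by 576 bases. In double mutant replicate 3, the library that stood apart from the rest, C1ra was at 14.4 FPKM and C1rb at 1.14. How reads were assigned between these genes was not tested.

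**Figure D3:**
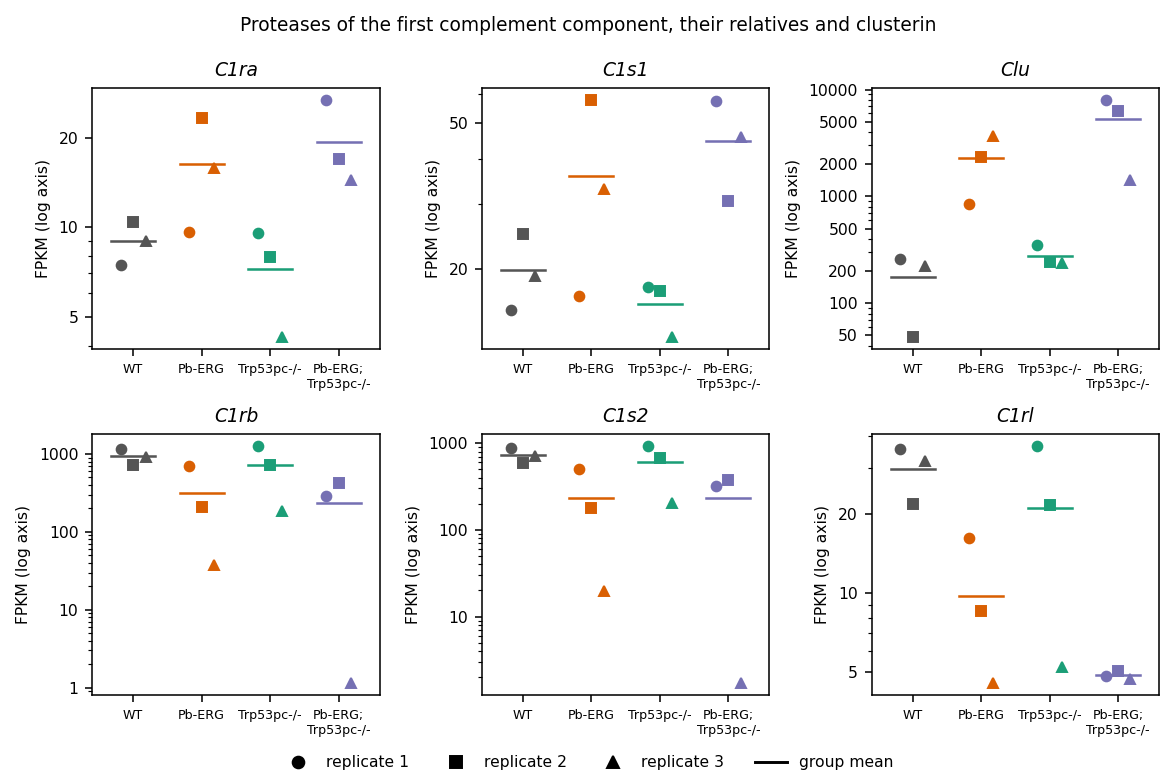
FPKM (log axis) of the C1 proteases C1ra and C1s1, of their relatives C1rb, C1s2 and C1rl, and of clusterin (Clu) in each library; symbols mark the replicate number and lines the mean of 3 mice. C1rb runs from 1171 in a WT library to 1.14 in a double mutant library. Clu is above every library without the transgene in all 6 libraries with it, a separation whose share over all genes was not counted.

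Of the other classes, C4a rose by 0.43 ± 0.14, and not with median-of-ratios scaling (adjusted p = 0.0596) or without double mutant replicate 3 (adjusted p = 0.0637). Cfd (factor D), the highest of its class, did not pass (0.45 ± 1.12) and ran from 0.144 to 54.9 FPKM. Its levels are known to be high in fat, and the adipocyte genes ran from 21.5 to 249.5 summed FPKM. The part of fat in the Cfd levels was not tested. Of 4 terminal components tested 3 were higher, with C7 (1.61 ± 0.49), the highest of its class, C6 (0.73 ± 0.21) and Hc, the gene of C5, at 0.24 ± 0.07. C6 (adjusted p = 0.0550) and C7 (adjusted p = 0.0865) did not pass with median-of-ratios scaling, and Hc was at most 0.350 FPKM. C8a, C8b and C9, needed for the lytic pore, were below the filter.

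Among 11 further regulators tested, Clu and Thbd were higher and none lower, a share below that of all genes. Clu (clusterin), an inhibitor of pore assembly and the most abundant of the regulators, rose by 3.85 ± 0.58 (adjusted p = 0.00192), from 47.9 to 258 FPKM in WT to 1430 to 7983 in double mutant libraries, 29.7-fold by group means. Thbd rose by 0.73 ± 0.23, and not with median-of-ratios scaling (adjusted p = 0.184) or without double mutant replicate 3 (adjusted p = 0.0619). The membrane regulators Cr1l (0.10 ± 0.16) and Cd46 (0.03 ± 0.12) did not pass, nor did Cd59a (1.24 ± 1.10), which ran from 3.38 to 613 FPKM. Of 8 receptors tested, 6 were higher: Itgax (1.60 ± 0.24), Itgb2 (1.53 ± 0.29), the highest of its class, C5ar2 (1.03 ± 0.22), Cd93 (1.02 ± 0.21), Itgam (0.97 ± 0.25) and C5ar1 (0.87 ± 0.18). Itgam did not pass with median-of-ratios scaling (adjusted p = 0.0507). Cr2 (-0.01 ± 0.09) and Vsig4 (0.22 ± 0.10) did not pass.

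**Figure D4:**
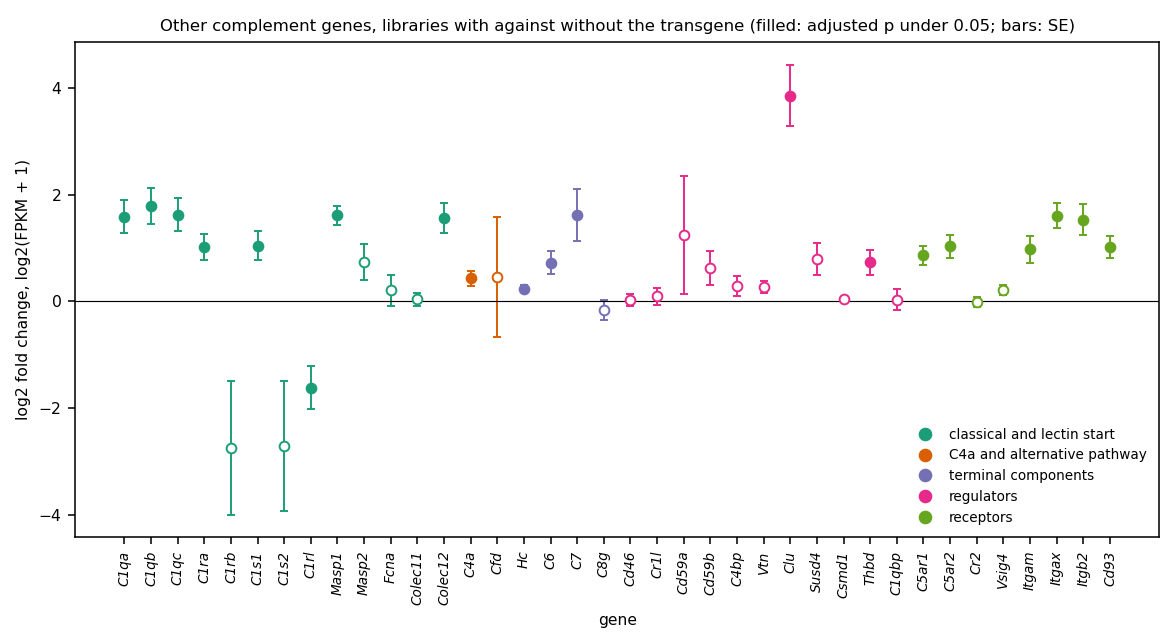
Log2 fold change with SE on the log2(FPKM + 1) scale of the 38 other complement genes tested, averaged over the transgene (6 libraries with against 6 without); colours mark the class and filled points had an adjusted p under 0.05. Of 38 points 19 are filled above 0 and 1, C1rl, is filled below 0.

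Several lists of cell type and response markers also held genes called higher with the transgene, and other lists held few or none. Macrophage genes summed to 73.4 to 143 FPKM in WT, 122 to 408 in Pb-ERG, 62.5 to 105 in Trp53pc-/- and 269 to 613 in double mutant libraries. Of these genes, 7 of 10 were higher in the average over the transgene, in which 29.3% of all genes were higher. Lyz2 made up much of the sum, with a mean of 52.8 FPKM in WT and 246 in double mutant libraries. Cd163 (3.66 in WT, 2.35 in double mutant) and Mertk (15.9 and 14.4) had lower means in double mutant than in WT libraries. Fibroblast genes summed to 285 to 508 in WT, 369 to 979 in Pb-ERG, 236 to 314 in Trp53pc-/- and 635 to 1475 in double mutant libraries, with 6 of 8 higher. T cell genes (6 of 9 higher), neutrophil genes (4 of 6), B and plasma cell genes (4 of 6) and endothelial genes (5 of 7) also held calls. Of 12 interferon response genes 11 were higher and summed to 153 to 513 FPKM in double mutant against 25.5 to 37.9 in WT libraries, and of 11 acute phase and NF-kB genes tested 10 were higher, at 936 to 1841 against 39.2 to 53.5. Luminal epithelial genes were at similar sums in all groups (1060 to 1743 FPKM, 3 of 8 higher, near the share of all genes), and basal epithelial (0 of 5), adipocyte (0 of 6), smooth muscle (0 of 7) and seminal vesicle genes (0 of 8) held no call. Prostate secretion genes (0 of 8 higher, 1 lower) summed to 73260 to 132826 FPKM in WT and 795 to 38125 in double mutant libraries. Hepatocyte genes, whose cells are the main source of plasma complement, were near 0: 2 of 9 passed the filter, Apoa1 was at most 0.116 FPKM, and the highest sum was 37.7 in Pb-ERG replicate 2, of which 36.5 was Alb. The part of these cells and responses in the members' levels was not tested.

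**Figure D5:**
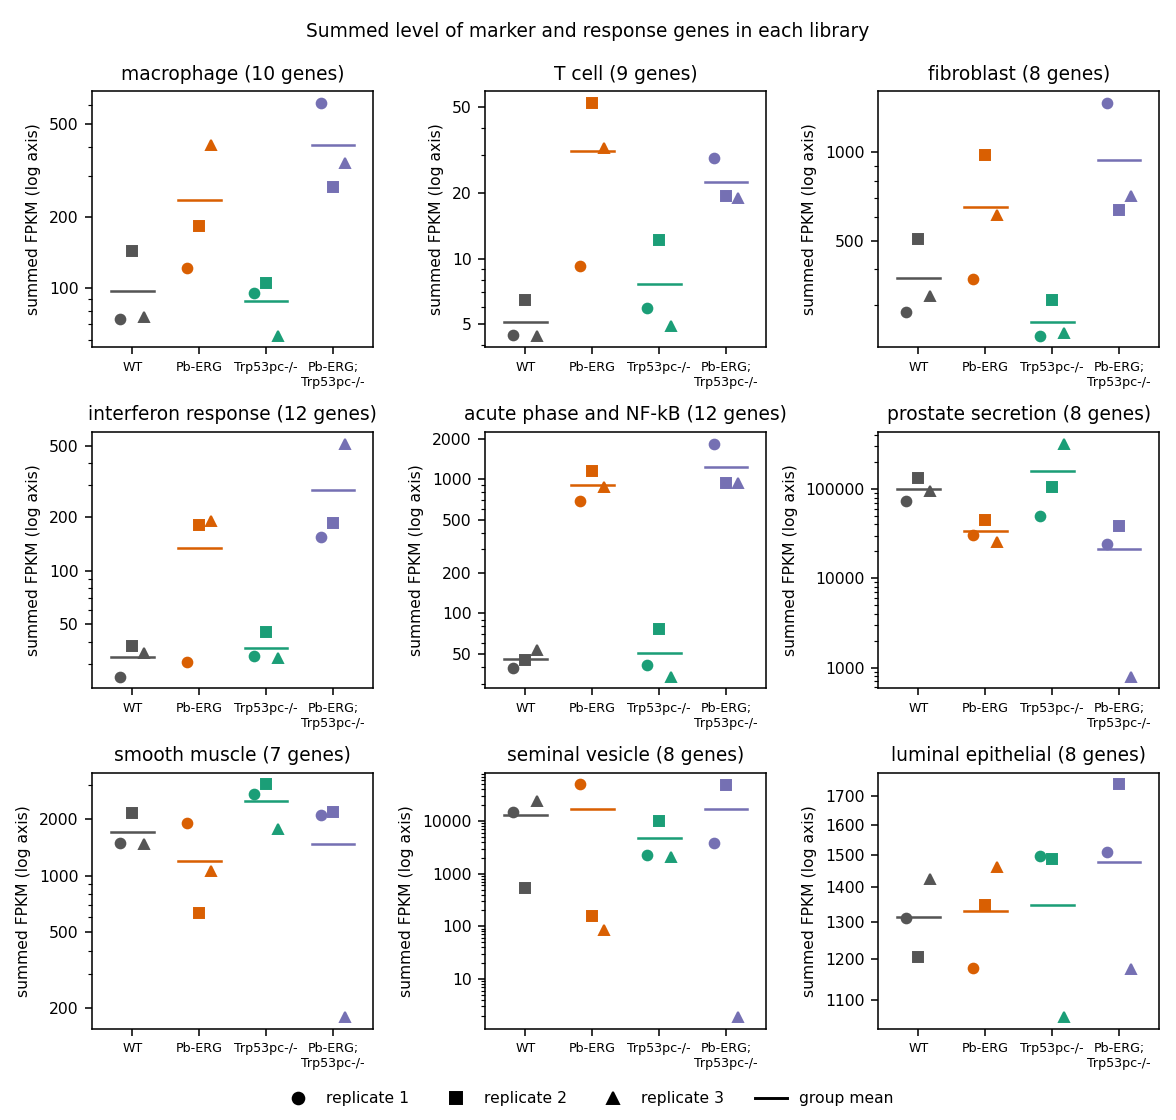
Summed FPKM (log axis) of the genes of 9 marker or response lists in each library; symbols mark the replicate number and lines the mean of 3 mice. Macrophage, fibroblast and interferon sums are higher in every double mutant than in every WT library, Pb-ERG replicate 1 is high for the acute phase list but not for the interferon list, and double mutant replicate 3 is lowest for prostate secretion, smooth muscle and seminal vesicle genes.

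Across the 12 libraries the log2(FPKM + 1) values of the members went together to differing degrees, given here as a description, since the libraries share genotypes. Pearson's r over the 36 pairs had a median of 0.85. It was highest for Cfb with Serping1 (0.97) and lowest for C4b with Cd55 (0.29), and the 5 lowest pairs all held Cd55. The tested genes with the most similar pattern, out of 13966 with a mean of at least 1 FPKM, were Podn, C1ra and Vcam1 for C3 (r from 0.95 to 0.96), H2-Q7, Ccl2 and Map3k6 for C4b (0.97 each) and Bmp1, Ssc5d and Adamts15 for C2 (0.99 each). For Cfb they were Stard13, Gm20547 and Aebp1 (0.98 to 0.99), of which Gm20547 shares its fragments. For Serping1 they were Nudt16, Pcolce and Stk10 (0.98 each), for Cfi Rin1, Actr3 and Myo1h (0.98 each) and for Cfp Plbd1, Tbxas1 and Mill2 (0.96 to 0.97). C3ar1 was most like Fcgr2b, Mpeg1 and Stab1 (0.98 each), and Cd55 most like Txndc16, Arl4c and Akap2 (0.91 to 0.93).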

How the data were processed

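RNA was extracted from whole prostate, and libraries were made with an unstranded poly(A) kit and sequenced as paired ends on an Illumina HiSeq. The authors aligned reads to GRCm38/mm10 with STAR (2.5.2b in the submitters' processing notes, another version in the methods) and deposited FPKM computed with RSeQC, 1 value per gene and library. These FPKM values are already divided by exon length and library total. Multiplied by both, all came out whole within 0.01, so fragments and depth (19747635 to 32565774, median 23786832) were recovered.

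Samples were grouped by their genotype labels. Genes reaching 0.42 CPM (10 fragments at the median depth) in 3 or more libraries and 15 fragments in total were kept, 17623 of 41042. limma 3.58.1 (R 4.3.3) with a mean-variance trend was fitted to log2(FPKM + 1) of all 12 libraries, with Benjamini-Hochberg adjustment over all genes tested and a threshold of 0.05. The study's threshold of 0.001 was an alternative, beside other scalings, filters, a pseudocount of 0.1, only the groups compared, voom on recovered fragments, the replicate number as a block and each library left out in turn. The main fit used FPKM, the deposited unit, and the recovered fragments entered a model only in voom. The fit was tested on simulated data. Only between WT and Trp53pc-/- did all 3 same-numbered pairs of libraries deviate together (r = 0.18 to 0.24), so the block was also fitted to these groups alone.

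The members and gene lists were chosen with earlier results of these data known. Some complement genes are not reported here and were left out of the lists and their counts. Named genes were the 9 members, other complement genes called in the average over the transgene, the gene of highest mean in each class and the 3 genes most like each member. Genes named beyond these (among them Pbsn, Alb, Apoa1, C1s2, Masp2, Cr1l, Cd46, Cd59a, Cr2 and Vsig4, and genes sharing sequence with a member) were chosen after their values were seen. Promoters and overlaps came from RefSeq and GENCODE tables of GRCm38. Figures used matplotlib 3.10.9.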

Additional observations from a re-analysis of the deposited data

Results flagged for a closer look

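For Cfb and Cfp the mean effect of the Trp53 deletion had opposite signs without and with the transgene. Neither effect passed the limma test for either gene, and the libraries of the groups compared overlapped. On the log2(FPKM + 1) scale every Trp53pc-/- library was below the WT mean and every double mutant library was above the Pb-ERG mean for both genes. That rule flagged them, and the share of all genes meeting it was not counted. Mean effects alone also had opposite signs for C2 (-0.04 and 0.93), C3ar1 (-0.02 and 0.89), Serping1 (-0.12 and 0.60) and Cd55 (-0.10 and 1.25). The mean effects were -0.51 and 0.75 for Cfb, a difference of 1.26, and -0.29 and 0.32 for Cfp, a difference of 0.61. The difference itself is the non-additive effect, which did not pass for either gene (limma, adjusted p = 0.764 for Cfb and 0.835 for Cfp). For Cd55 the difference was larger, 1.35, and did not pass either (limma, adjusted p = 0.746). Without Pb-ERG replicate 1 the effect with the transgene was 0.21 for Cfb, still opposite in sign, and -0.17 for Cfp, the same sign as without the transgene, with differences of 0.72 and 0.12 (adjusted p = 0.636 and 0.948). For Cfp, leaving out WT replicate 2 or Trp53pc-/- replicate 3 brought the effect without the transgene to -0.01 and -0.05.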

How the results depend on the processing

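Of 486 log2 fold changes of members recomputed under alternatives other than left-out libraries, 21 lost their call, 3 gained one and 0 called values changed direction. The study used a false discovery rate of 0.001 with DESeq2, which is another test than limma on log2(FPKM + 1). At an adjusted p under 0.001 in limma, 0 members were called in the average over the transgene. The same held for double mutant against WT and for double mutant against Trp53pc-/-. In the latter comparison, fitting only the groups compared gave 5 members at the threshold of 0.05, where the main fit gave 8. Among the other complement genes the threshold of 0.001 left 1 higher and 0 lower in the average over the transgene. At 0.05 the replicate block gave 3 lower. Over all genes, median-of-ratios scaling moved the genes called higher from 5169 to 2206 in the average over the transgene, from 3880 to 1424 in double mutant against WT and from 3289 to 1458 in double mutant against Trp53pc-/-. Leaving out each library in turn gave 0 to 8 members called for Pb-ERG against WT, 4 to 8 for double mutant against WT, 4 to 9 for double mutant against Trp53pc-/- and 8 in every fit for the average over the transgene. Over the 4 groups replicate numbers did not pair the mice: deviations of same-numbered libraries correlated at -0.24 to 0.37, over 0.1 in 8 of 18 pairs. The replicate block gave 9 members for the average over the transgene, 6 for double mutant against WT, 7 for double mutant against Trp53pc-/- and 0 elsewhere. Fitted to WT and Trp53pc-/- libraries alone, an alternative chosen after seeing the data, the block also gave 0 members and 0 of all genes (1995 genes and 0 members at an unadjusted p under 0.05 in limma, lowest adjusted p of a member 0.442). The cause of these changes was not tested. With 3 mice per group the spread between mice limits what can be detected, and Cfi in WT also rests on 16 to 29 fragments.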
